A study of Mus musculus with 18 samples.

Results

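Immune cells sorted from mouse arteries for the Cx3cr1 reporter alone (labelled GFP, n = 6 libraries, GFP_1 to GFP_6) were compared with immune cells that carried neither reporter (labelled DN, n = 3 libraries, DN_1, DN_3 and DN_6). These 9 libraries are all that the labels give for the 2 subsets, of 18 libraries in the series. All mice were C57BL/6 and Apoe-/-, carried the Cx3cr1GFP and Cd11cYFP reporters, were aged 7 months and had been kept for 5 months on Western Diet. The labels' protocols say that aortas and carotid arteries of both sexes were digested and that live CD45+ cells were sorted by GFP and YFP. GFP cells were thus GFP+ and YFP-, DN cells were negative for both, and no group lacked the Apoe deletion, the reporters or the diet. The labels do not state the zygosity of the reporters or how many mice stand behind a library. They do not call the replicates separate animals either, so a p-value reflects the scatter among these libraries alone, which may be technical.

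Cx3cr1 encodes the receptor for fractalkine and is carried by monocytes, above all the patrolling nonclassical kind, and by many tissue macrophages. CD11c, the integrin subunit that Itgax encodes, is carried by dendritic cells and by lipid-laden macrophages of plaques. An artery wall with atherosclerosis also holds T cells, B cells, innate lymphocytes, neutrophils and mast cells, most of which do not carry either reporter, so a double-negative gate can hold many cell types. In bulk RNA, fewer cells of a type and less RNA of that type per cell cannot be told apart.

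The 6 GFP libraries held 11066213 to 21674877 gene counts and the 3 DN libraries 14165687 to 24723544. Between 14731 and 21448 genes had a count in a GFP library. The number was 21972 in DN_1, 16450 in DN_3 and 14545 in DN_6. GFP_1 and GFP_2 held as many as DN_1 or nearly so, at 20677 and 21448, while GFP_3 to GFP_6 held 14731 to 15730. Levels are given as CPM, the usual rate of counts relative to library size, here a size scaled by TMM, a method that lines up the bulk of genes across libraries. The scaling factor was 1.75 for DN_1, above the 0.862 to 1.33 of the GFP libraries.

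The transcripts of the reporter genes were at odds with the DN label in 2 of 3 libraries. Cx3cr1 (mm10 chromosome 9, 119901616 to 120069879) was at 80.9, 110, 147, 140, 144 and 165 CPM in GFP_1 to GFP_6. It was at 4.09 CPM in DN_1, below every GFP library, but at 142 CPM in DN_3 and 134 CPM in DN_6, inside the GFP range. Itgax (chromosome 7, 128129547 to 128150657) was at 107 to 191 CPM in GFP libraries, with a median of 165. It was at 11.4 CPM in DN_1 and at 332 and 297 CPM in DN_3 and DN_6, above all 6 GFP libraries. The last 2 are therefore called the libraries labelled DN_3 and DN_6. Transcript level and reporter fluorescence are separate measurements, and the sort itself was not read here. Averaged over all 3 DN libraries, log2(CPM + 1) of Cx3cr1 was 1.48 higher in GFP (two-sided exact permutation test, p = 0.179, 0.357 adjusted over 2 genes). For Itgax the difference was 0.49 (exact permutation p = 0.786, 0.786 adjusted). With 84 splits of 9 libraries the smallest p this test can give is 0.0119. Without DN_1 the difference was -0.11 for Cx3cr1 (exact permutation p = 0.786). For Itgax it was -1.07, the other way round, at an exact permutation p = 0.0357, the smallest that 6 against 2 libraries allow. Neither p-value without DN_1 was adjusted, and DN_1 was set apart with earlier results of these data known.

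**Figure D1:**
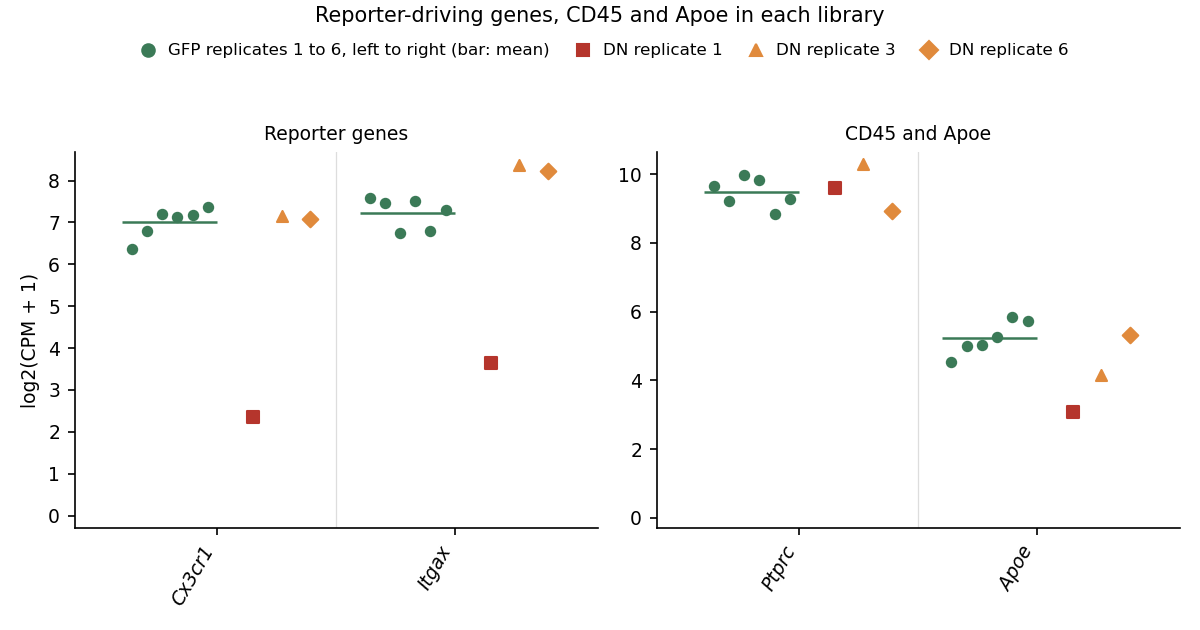
Levels of Cx3cr1, Itgax, Ptprc and Apoe in each library, as log2(CPM + 1); circles are GFP replicates 1 to 6 with a bar at their mean, and the square, triangle and diamond are DN replicates 1, 3 and 6. DN replicate 1 lies below every GFP library for Cx3cr1 (4.09 CPM) and Itgax (11.4 CPM), while DN replicates 3 and 6 lie inside the GFP range for Cx3cr1 and above it for Itgax.

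Ptprc, which encodes CD45, the protein that the sort selected, was at 461 to 1015 CPM in GFP libraries. It was at 783 CPM in DN_1 and at 1248 and 486 CPM in the libraries labelled DN_3 and DN_6, so none of the 3 lay below the GFP range. Apoe, deleted in all of these mice, still gave 22.1 to 57 CPM in GFP libraries and 7.42, 16.9 and 38.8 CPM in DN_1, DN_3 and DN_6. There was no Apoe-sufficient library to set beside it, and the position of these reads in the gene is not in the deposited counts.

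With all 3 DN libraries taken as 1 group, no gene passed the test between GFP and DN. The quasi-likelihood test of edgeR, fitted on 17143 genes over all 18 libraries of the series, called 0 genes (0% in each direction) at a Benjamini-Hochberg adjusted p of 0.05. At an unadjusted p under 0.05 there were 231 genes, and the smallest adjusted p was 0.999977. The common dispersion, the spread that edgeR estimated over all genes, was 0.890 in this fit. Among the 18 libraries was YFP replicate 6, with only 289166 counts. No setting left out that library alone, so its part in the spread was not tested. DN_1 was then given a mean of its own. GFP against the libraries labelled DN_3 and DN_6 again gave 0 calls (0% each way), with 164 genes at an unadjusted p under 0.05. GFP against DN_1 alone gave 0 calls (0% each way), with 977 genes at an unadjusted p under 0.05 and a smallest adjusted p of 0.202. DESeq2 called 0, 4 and 202 genes in the 3 comparisons. The 3 comparisons share the GFP libraries and are set side by side only as values. Errors of log2 fold changes are given as SE, derived from the fold change and the F statistic of the test. All log2 fold changes are GFP minus DN, so that a positive value is higher in GFP. Over all genes tested the median was 0.04 against DN, 0.11 against DN_3 and DN_6 and -0.15 against DN_1, with 54.2%, 58.7% and 45.02% of genes higher in GFP.

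The DN libraries were not alike, and the count of genes outside the GFP range shows by how much. DN_1 was at least 2-fold above the highest GFP library for 791 genes (4.61% of those tested) and at least 2-fold below the lowest for 1124 genes (6.56%), on CPM + 1. The library labelled DN_3 was outside by as much for 150 genes above and 24 below, and DN_6 for 40 above and 125 below. A GFP library set against the other 5 gave 4 to 827 genes above and 2 to 291 below, and GFP_2 had the 827. Ranks of all 17143 genes correlated at 0.841 to 0.875 between DN_1 and the other 2 DN libraries, and at 0.940 between DN_3 and DN_6 (Spearman's rho, across genes, which are not independent). Pairs of GFP libraries gave 0.905 to 0.982. With GFP libraries DN_1 gave 0.834 to 0.912, and the libraries labelled DN_3 and DN_6 gave 0.908 to 0.979. The range of DN_1 thus met the lower end of the range among GFP libraries, and those of DN_3 and DN_6 lay within it. The scaling decides how the genes outside the range of DN_1 divide. By total counts 1706 were above and 555 below.

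**Figure D2:**
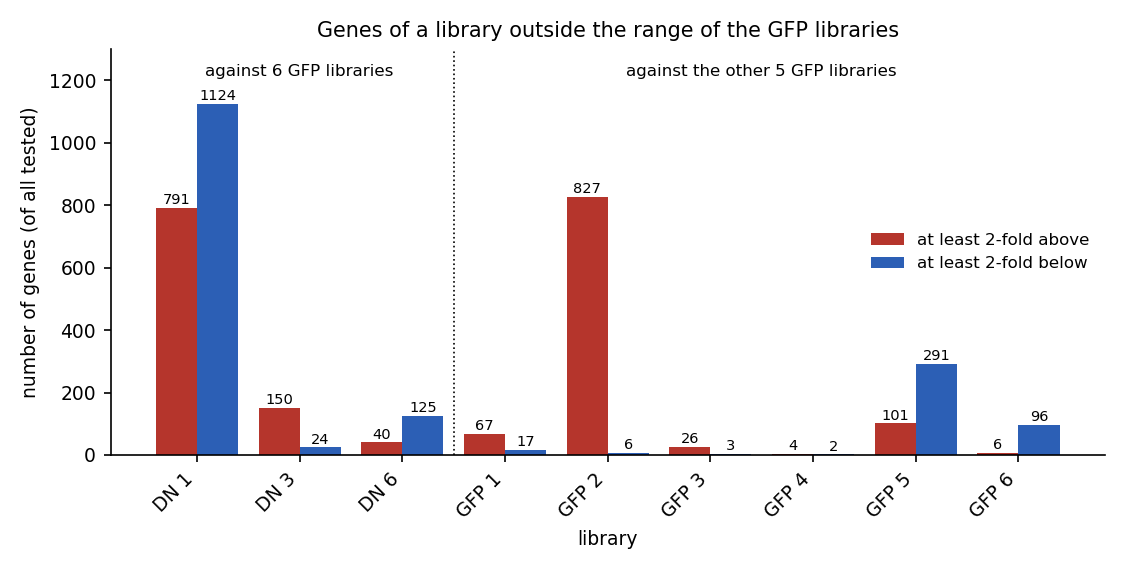
Number of the 17143 tested genes that lie at least 2-fold above (red) or below (blue) the range of the GFP libraries, on CPM + 1. The 3 DN libraries are each set against 6 GFP libraries and each GFP library against the other 5; DN replicate 1 has 791 above and 1124 below, DN replicates 3 and 6 have at most 150, and GFP replicate 2 has 827 above.

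What all 3 DN libraries shared was more transcript of fibroblast and matrix genes. All 3 lay above all 6 GFP libraries for 145 genes (0.846% of those tested), of which 53 had an unadjusted p under 0.05 in edgeR and none passed after adjustment. Without GFP_2 the count was 248. The share of 0.846% was under the mean share of 0.0119 that all 84 splits of 9 libraries would give without ties. Of 12 listed fibroblast genes, 10 were among the 145, all but Lum and Pdgfra. All 12 were lower in GFP in the fit, with a median log2 difference of -2.08 against DN, -2.06 against DN_3 and DN_6 and -2.06 against DN_1. Of the 12, 9 had an unadjusted p under 0.05 and 0 passed. Without DN_1, both remaining libraries lay above all GFP libraries for 11 of the 12 (1.77% of all genes tested did so), and without GFP_1 and GFP_2 as well the count was again 11. Splits of 6 against 2 libraries would give a mean share of 0.0357 of all genes without ties.

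Col1a2 (chromosome 6, 4504814 to 4541544), a chain of type I collagen, was at 21.6 to 146 CPM in GFP libraries, with a median of 77.2. It was at 358 CPM in DN_1 and at 613 and 278 CPM in DN_3 and DN_6. The groups did not overlap, and the log2 difference was -2.51 ± 0.75 (edgeR, unadjusted p = 0.00238, adjusted p = 0.999977). Col1a1, the other chain, was at 13.5 to 108 CPM in GFP libraries and at 371, 463 and 365 CPM in the 3 DN libraries. Col3a1, type III collagen of vessel walls (chromosome 1, 45311538 to 45349706), spread more. It ran from 58.6 to 346 CPM in GFP libraries against 690, 2085 and 1091 CPM. Dcn encodes decorin, a small proteoglycan that binds collagen, and was at 39.5 to 264 CPM in GFP libraries against 479, 677 and 462 CPM. For all 4 genes GFP_3 had the highest GFP level, and GFP_5 or GFP_6 the lowest.

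Other genes named for their separation of the groups, with Cxcl12 added after its values were seen, form no list of their own. Sfrp4, a secreted antagonist of Wnt ligands (chromosome 13, 19623104 to 19632994), was at 11.8 to 119 CPM in GFP libraries, with a median of 36.9. DN_1 held 147 CPM, DN_3 677 CPM and DN_6 276 CPM, so DN_1 was only just outside the GFP range while the other 2 were more than 2-fold above it. Its log2 difference was -3.02 ± 0.89 (edgeR, unadjusted p = 0.00217, not passed). Sparc, a matrix protein that binds collagen (chromosome 11, 55394500 to 55423183), varied little among GFP libraries. It averaged 52.7 ± 13.6 CPM (SD, n = 6) in GFP libraries and stood at 192, 208 and 218 CPM in the DN libraries. Serping1, the inhibitor of complement C1 (chromosome 2, 84765387 to 84775444), was at 18.4 to 135 CPM in GFP libraries and at 325, 409 and 299 CPM in DN libraries. Comp, a matrix protein first described in cartilage, was at 1.92 to 16.1 CPM against 47.9, 62.2 and 42.3 CPM. Lbp, which carries lipopolysaccharide to Cd14, was at 2.91 to 9.06 CPM against 25.3, 55.3 and 32.3 CPM. Cxcl12, the ligand of Cxcr4 and a product of stromal cells, was at 16.3 to 72.1 CPM against 158, 349 and 185 CPM. None of these genes passed the test over all genes.

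The summed level of the fibroblast list was 273 to 1168 CPM in GFP libraries and 2442, 4619 and 2666 CPM in DN_1, DN_3 and DN_6. Other cell types of the vessel wall did not stand out in the same way. The smooth muscle list summed to 84.9 to 377 CPM in GFP libraries and to 397, 150 and 108 CPM in the 3 DN libraries. The endothelial list summed to 23.3 to 66.8 CPM and to 68.8, 31.3 and 29.3 CPM. Ptprc was not below the GFP range in any of the 3. Whether the matrix transcripts came from CD45+ cells or from other cells that passed the gate was not tested.

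A smaller set of genes, 4 of 14 listed for patrolling monocytes among them, was lower in all 3 DN libraries. All 3 DN libraries lay below all 6 GFP libraries for 109 genes (0.636%), 16 of them with an unadjusted p under 0.05 in edgeR, and none passed. This share too was under the mean of 0.0119 that all 84 splits would give without ties. Of 14 nonclassical monocyte genes, 4 were among the 109, namely Cd300e, Treml4, Emr4 and Eno3. In the fit 12 of 14 were higher in GFP, with a median of 0.56, and 0 passed. Against DN_3 and DN_6 alone 13 of 14 were higher, with a median of 1.0, and both libraries lay below all GFP libraries for 6 of 14. Of all genes 2.09% did so, under the mean share of 0.0357 that splits of 6 against 2 libraries would give without ties. Cx3cr1 itself is on the nonclassical list and was not one of the 6 of 14. Against DN_1, 9 of 14 were higher in GFP and 5 lower, with a median of 1.87. The summed list of DN_1, at 3804 CPM, lay inside the GFP range of 3407 to 5408 CPM, while DN_3 and DN_6 lay below it at 3041 and 3261 CPM. The lower level in DN_3 and DN_6 was not particular to this list. Of 14 classical monocyte genes both libraries lay below all GFP libraries for 6 and above for 1, with a median of 1.61.

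Treml4, a receptor of the TREM family on patrolling monocytes (chromosome 17, 48264295 to 48275360), was at 29.8 to 58.0 CPM in GFP libraries, with a median of 43.0. It was at 5.97, 7.62 and 8.14 CPM in DN_1, DN_3 and DN_6, which lay close together for this gene. The log2 difference was 2.54 ± 0.87 (edgeR, unadjusted p = 0.00714, adjusted p = 0.999977). Cd300e, an activating receptor of monocytes (chromosome 11, 115051917 to 115062177), was at 18.5 to 32.0 CPM in GFP libraries and at 0.509, 6.30 and 4.84 CPM in the DN libraries. Emr4, an adhesion receptor related to F4/80 (chromosome 17, 55749984 to 55853662, Adgre4 in the annotation), was at 36 to 84.6 CPM against 6.24, 22.2 and 4.92 CPM. F10, coagulation factor X (chromosome 8, 13037308 to 13056676), averaged 112 ± 15.1 CPM (SD, n = 6) in GFP libraries and stood at 27.8, 28 and 47.6 CPM in DN libraries. All 4 separated the groups completely, with unadjusted p from 0.00714 to 0.039 in edgeR.

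The abundant members of the list did not separate the groups. Cebpb, a transcription factor that nonclassical monocytes depend on, was at 938 to 2753 CPM in GFP libraries and at 412, 1217 and 1686 CPM in DN libraries. Nr4a1, the nuclear receptor that the same cells need, was at 1368 to 1944 CPM in GFP libraries, at 2651 CPM in DN_1 and at 1160 and 840 CPM in DN_3 and DN_6. It is also an immediate early gene. Klf2 was at 86.4 to 244 CPM in GFP libraries and at 225, 109 and 160 CPM in DN libraries. Cd36, a scavenger receptor for oxidised lipoprotein, was at 146 to 500 CPM in GFP libraries and at 17.8, 231 and 278 CPM. Only DN_1 was below the GFP range for Cd36.

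**Figure D3:**
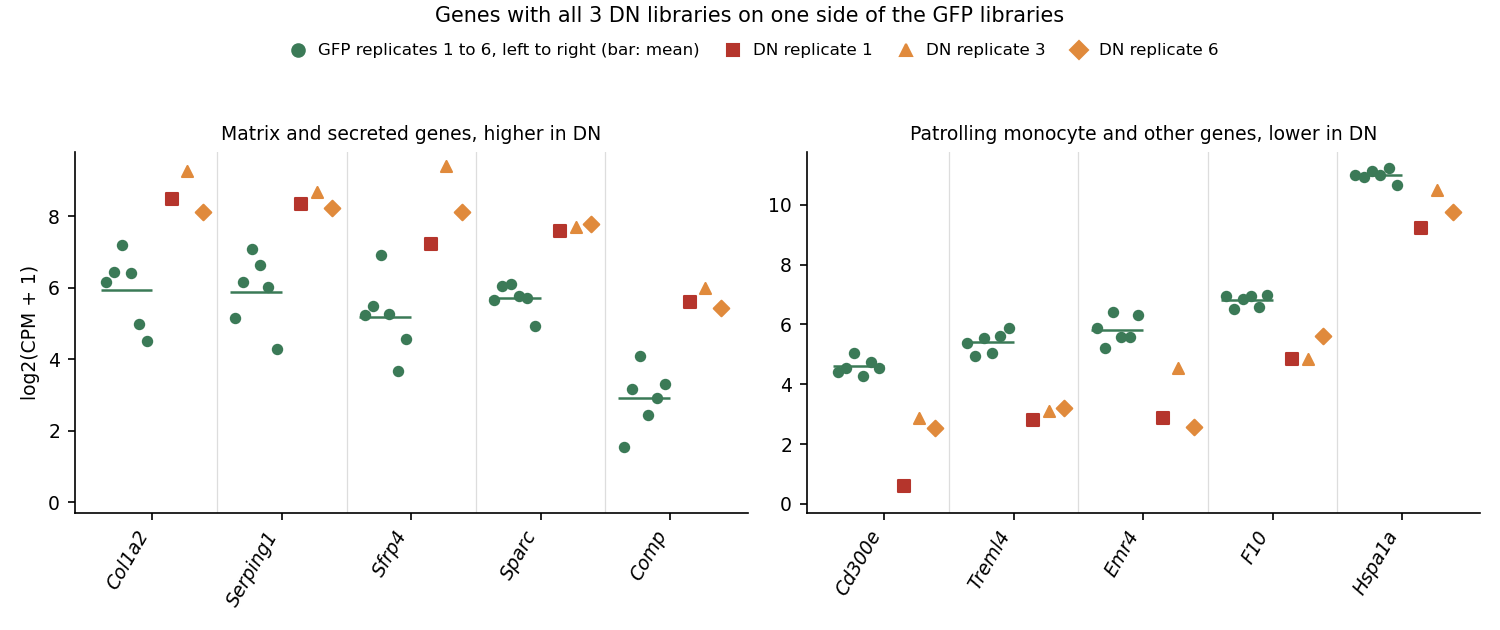
Levels, as log2(CPM + 1), of the genes named for complete separation of GFP (circles, replicates 1 to 6, bar at the mean) and all 3 DN libraries (square, triangle and diamond for DN replicates 1, 3 and 6). Col1a2, Serping1, Sfrp4, Sparc and Comp lie higher in every DN library, and Cd300e, Treml4, Emr4, F10 and Hspa1a lie lower; none passed the adjusted test.

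DN_1 held far more transcript of lymphocytes and neutrophils than any GFP library. It lay at least 2-fold above all 6 GFP libraries for 13 of 14 B cell genes, 16 of 17 T cell genes, 8 of 11 ILC2 genes, 8 of 14 NK and cytotoxic genes and 7 of 14 neutrophil genes, against 4.61% of all genes. Median log2 differences of GFP against DN_1 were -6.22 for B cell, -4.22 for T cell and -4.47 for ILC2 genes, beside -0.15 for all genes. By total counts in place of TMM the B and T cell counts were the same, and the NK and neutrophil counts were 11 and 10. In the fit over 18 libraries 0 members of any list passed against DN_1.

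Cd79a, which encodes a signalling chain of the B cell receptor (chromosome 7, 24897381 to 24902197), was at 0.0532 to 5.85 CPM in GFP libraries. It was at 449 CPM in DN_1 and at 0.366 and 0.147 CPM in DN_3 and DN_6. Ms4a1, which encodes CD20 (chromosome 19, 11249675 to 11266241), averaged 1.22 ± 0.399 CPM (SD, n = 6) in GFP libraries and was at 152 CPM in DN_1. The log2 difference against DN_1 was -6.96 ± 1.35 (edgeR, unadjusted p = 2.63e-05, adjusted p = 0.202). Blk, a Src family kinase of B cells (chromosome 14, 63372836 to 63417037), was at 114 CPM in DN_1 and at most 1.57 CPM in GFP libraries. Blnk, an adaptor of the B cell receptor that macrophages also express, was the exception of the list. It was at 119 to 353 CPM in GFP libraries and at 67.0 CPM in DN_1.

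Among T cell genes, Cd3e was at 279 CPM in DN_1 and at 0.151 to 42.1 CPM in GFP libraries. GFP_1 and GFP_2 held 42.1 and 27.3 CPM, and GFP_3 to GFP_6 held at most 4.50 CPM. Lck, the kinase of the T cell receptor, was at 387 CPM in DN_1, at 101 and 36.2 CPM in GFP_1 and GFP_2 and at 1.10 to 7.58 CPM in GFP_3 to GFP_6. Il7r, the receptor of interleukin 7 that monocytes can also express, was the member that DN_1 held inside the GFP range, at 219 CPM against 68.0 to 269 CPM. Il17a, the cytokine of gamma delta T cells and Th17 cells (chromosome 1, 20730905 to 20734496), was at 41.3 CPM in DN_1 and at no more than 0.367 CPM in any other of the 9 libraries. Rora, a transcription factor that ILC2 and Th17 cells share, was at 139 CPM in DN_1 and at 16 to 25.8 CPM in GFP libraries. Areg, a growth factor of ILC2 and other cells, was at 40.0 CPM in DN_1, inside the GFP range of 31.7 to 82.6 CPM. Cd55, a complement regulator, was at 94.7 CPM in DN_1 and at most 3.05 CPM in GFP libraries. Kcnk1, a potassium channel, was at 28.4 CPM in DN_1 and at most 0.435 CPM in GFP libraries.

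Cytotoxic genes were high in DN_1 and in part of the GFP libraries. Il2rb, a chain of the receptor for interleukins 2 and 15, was at 444 CPM in DN_1, 119 and 55.2 CPM in GFP_1 and GFP_2, and 0 to 10.8 CPM in GFP_3 to GFP_6. Nkg7 was at 226 CPM in DN_1, 126 and 69.3 CPM in GFP_1 and GFP_2 and at most 5.20 CPM in the other GFP libraries. Gzmb, granzyme B, was at 94.4 CPM in DN_1, against 81.1 CPM in GFP_1, 28.5 CPM in GFP_2 and at most 1.54 CPM in GFP_3 to GFP_6. In the libraries labelled DN_3 and DN_6 Gzmb was at 0.513 and 0 CPM. The 3 libraries with these transcripts are those numbered 1 and 2, which also held the most detected genes. The labels give no batch for these numbers.

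S100a8 and S100a9, which form the calprotectin of neutrophils, were at 411 and 558 CPM in DN_1. In GFP libraries S100a8 ran from 2.59 to 66.9 CPM and S100a9 from 3.55 to 81.3 CPM, with GFP_5 the highest. Csf3r, the receptor of G-CSF that monocytes also carry, was at 276 CPM in DN_1 and at 116 to 205 CPM in GFP libraries, so it lay outside the GFP range by less than 2-fold. Il1r2, the decoy receptor of interleukin 1, was at 372 CPM in DN_1 against 84.8 to 294 CPM. Hdc, the histamine-forming enzyme of mast cells, basophils and neutrophils, was at 369 CPM in DN_1 and 20.5 to 58.2 CPM in GFP libraries. The mast cell proteases went the other way. Cma1 was at 2.85 to 57.6 CPM in GFP libraries and at 0.809, 0.366 and 0.0734 CPM in DN_1, DN_3 and DN_6. Cpa3 and Tpsb2 were highest in GFP_5 and GFP_6, at 27.3 and 53.7 CPM and at 50.3 and 61.0 CPM, and were under 1 CPM in all 3 DN libraries and in GFP_1.

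The macrophage genes were low in DN_1. All 16 macrophage core genes were at least 2-fold below the lowest GFP library, as were 14 of 17 foamy or TREM2-high macrophage genes, 15 of 22 lysosome genes, 11 of 16 resident vascular macrophage genes and 10 of 16 chemokine ligands, against 6.56% of all genes. Medians of GFP against DN_1 were 4.38, 4.19, 2.67, 2.58 and 3.15 in that order. By total counts the counts were 15, 13, 12, 6 and 9, so the resident macrophage count was the most dependent on scaling. The summed macrophage core list was at 24756 to 72511 CPM in GFP libraries, 2610 CPM in DN_1, and 32532 and 67442 CPM in DN_3 and DN_6.

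Emr1, which encodes F4/80 (chromosome 17, 57358691 to 57483527, Adgre1 in the annotation), was at 805 to 2113 CPM in GFP libraries, with a median of 1385, and at 38.2 CPM in DN_1. The log2 difference was 5.18 ± 1.07 (edgeR, unadjusted p = 5.6e-05, adjusted p = 0.202). C3ar1, the receptor of the complement fragment C3a (chromosome 6, 122847138 to 122856161), was at 604 to 1335 CPM in GFP libraries and at 24.2 CPM in DN_1. Gdf15, a cytokine of stressed cells and macrophages (chromosome 8, 70629393 to 70632456), was at 631 to 1613 CPM and at 11.4 CPM. Cxcl16, a membrane chemokine that also binds oxidised lipoprotein (chromosome 11, 70453983 to 70459984), was at 1153 to 2806 CPM and at 26.9 CPM. Dab2, an endocytic adaptor, was at 590 to 1449 CPM and at 53.4 CPM. For each of these 5 genes the libraries labelled DN_3 and DN_6 lay inside the GFP range, apart from DN_3 for C3ar1 (1391 CPM) and Cxcl16 (2966 CPM), just above it.

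C1qb, a chain of complement C1q, was at 2457 to 9195 CPM in GFP libraries, at 149 CPM in DN_1 and at 2899 and 8669 CPM in DN_3 and DN_6. Lyz2, lysozyme, was at 7052 to 26925 CPM in GFP libraries and at 788 CPM in DN_1. Spp1, osteopontin, which foamy macrophages secrete, ran from 2623 to 19924 CPM in GFP libraries. It was at 188 CPM in DN_1, 6502 CPM in DN_3 and 28897 CPM in DN_6, above every GFP library. Ctsd, the lysosomal protease cathepsin D, had the same order in DN libraries, at 703, 4160 and 13106 CPM against 2486 to 9105 CPM. Lgals3, galectin 3, was at 132, 2440 and 7954 CPM in the DN libraries against 1627 to 6420 CPM. DN_6 was thus above and DN_3 inside the GFP range for these 3 genes. Ccl3 and Ccl4, inflammatory chemokines that macrophages secrete, were at 360 and 285 CPM in DN_1 and at no less than 1247 and 2065 CPM in any GFP library.

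**Figure D4:**
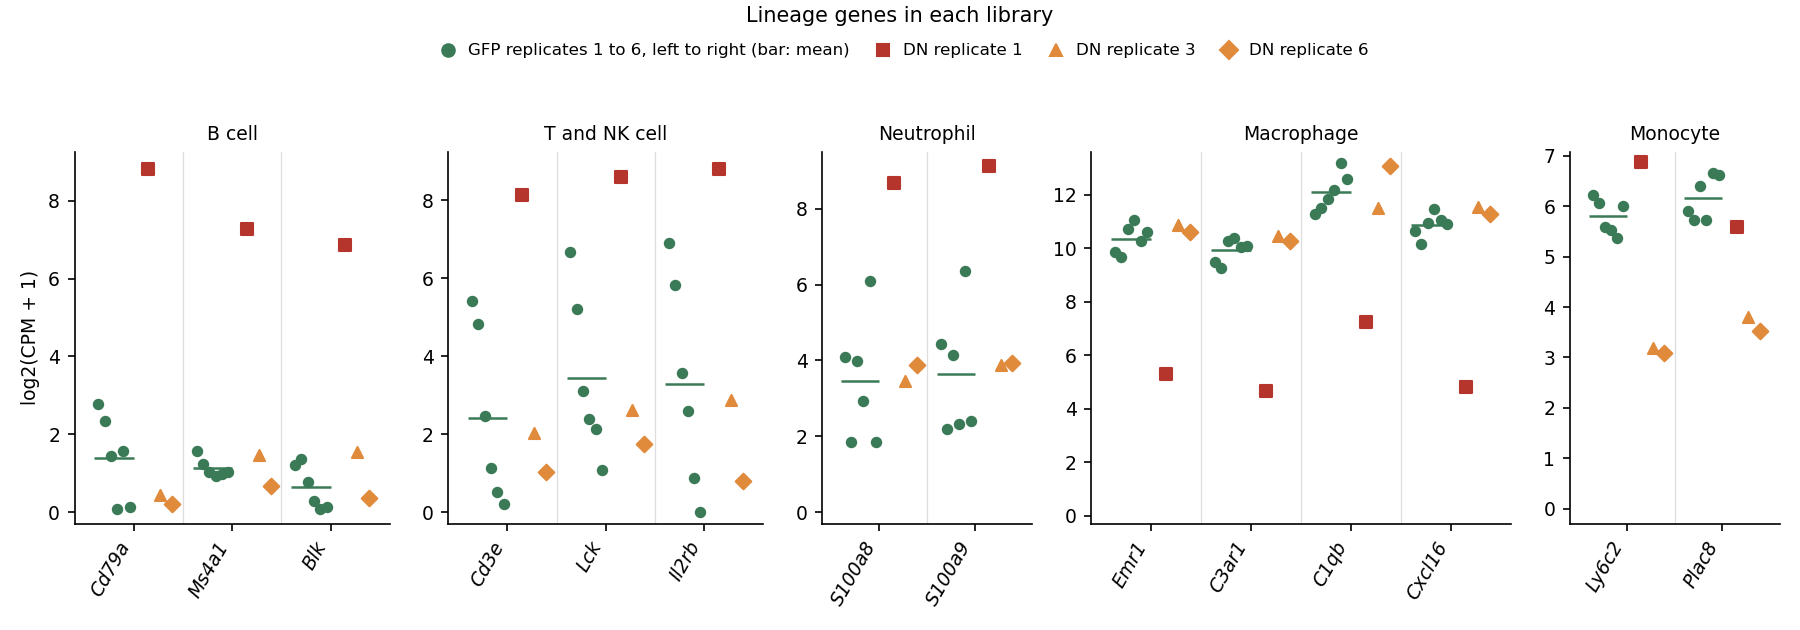
Levels of lineage genes in each library, as log2(CPM + 1), with a vertical axis of its own for each panel; circles are GFP replicates 1 to 6 from left to right with a bar at their mean, and the square, triangle and diamond are DN replicates 1, 3 and 6. DN replicate 1 is highest for the B cell, T and NK cell and neutrophil genes and lowest for the macrophage genes, while DN replicates 3 and 6 are lowest for Ly6c2 and Plac8.

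How many genes of DN_1 passed a test depended on which libraries were in the fit and on the method. The fit on the 9 GFP and DN libraries also had a filter and scaling of its own. Which of these moved the count was not tested. With the 9 GFP and DN libraries alone, edgeR called 518 genes higher in GFP than in DN_1 (3.45% of 15001) and 255 lower (1.7%). The total of 773 became 451 without GFP_4, 469 without GFP_3 and 497 without GFP_6. These called genes included 12 of 16 macrophage core genes, 10 of 22 lysosome genes and 8 of 17 foamy macrophage genes, all higher in GFP, and 12 of 13 B cell and 4 of 17 T cell genes, all lower. Ms4a1 (adjusted p = 0.000208), Cd55 (0.00153), Gdf15 (0.00367), Cx3cr1 (0.00367), C3ar1 (0.00492) and Emr1 (0.00724) passed in that edgeR fit, whereas Cd3e (0.152) and Spp1 (0.0804) did not. Limma with voom quality weights called 1156 higher and 2577 lower in the fit over 18 libraries. DN_1 is 1 library, so each of these tests assumes that it varies like the others and compares that library with GFP. Among numbers 1 and 2 alone edgeR also called genes, but DN_1 was then the lone DN library. Only GFP_1 and GFP_2 stood for GFP, and the fit also held DP and YFP libraries of these numbers. No count is given for it. Among numbers 3 to 6, GFP_3 to GFP_6 against the libraries labelled DN_3 and DN_6, edgeR called 0.

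The libraries labelled DN_3 and DN_6 carried macrophage genes at the level of GFP libraries. No macrophage core gene of either was outside the GFP range in both libraries, and the median difference of GFP against them was -0.13, beside 0.11 for all genes. For foamy macrophage genes the median was -0.56, with 4 of 17 higher in GFP, and for lysosome genes -0.29, with 2 of 22 higher. The lymphocyte lists, high in DN_1, were near the GFP range in them. The B cell list summed to 372 and 465.5 CPM in DN_3 and DN_6, of which Blnk gave 317 and 392 CPM, and to 199 to 403 CPM in GFP libraries. The T cell list summed to 340 and 198 CPM, of which Il7r gave 279 and 141 CPM, against 183 to 543 CPM. Both libraries were at least 2-fold above all GFP libraries for 19 genes (0.111%) and at least 2-fold below for 12 genes (0.07%). Without GFP_3 the 19 became 35, and the 12 became 20 without GFP_4 and 19 without GFP_1. At 4-fold the counts were 0 and 1.

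Of those 12 genes 3 are on the nonclassical monocyte list (Cd300e, Treml4 and Pglyrp1) and 3 on the classical monocyte list (Ly6c2, Plac8 and Hp). Ly6c2, the surface antigen that marks classical monocytes (chromosome 15, 75108158 to 75111970), was at 40.5 to 73.4 CPM in GFP libraries, with a median of 55.1. It was at 8.06 and 7.48 CPM in DN_3 and DN_6, more than 4-fold below the lowest GFP library, and at 117 CPM in DN_1. Its log2 difference against DN_3 and DN_6 was 2.85 ± 1.34 (edgeR, unadjusted p = 0.0443, not passed). Reads of Ly6c2 and its near copy Ly6c1 may be shared. Plac8, a small protein of monocytes and granulocytes (chromosome 5, 100553725 to 100572245), was at 51.7 to 99.6 CPM in GFP libraries, 46.8 CPM in DN_1 and 12.9 and 10.6 CPM in DN_3 and DN_6. Hp, haptoglobin, was at 50.6 to 122 CPM in GFP libraries and at 91.5, 22.1 and 23.0 CPM in DN libraries. Cd177, a glycoprotein of neutrophils and some monocytes, was at 17.3 to 56.5 CPM in GFP libraries and at 57.1, 9.09 and 1.39 CPM.

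Not all classical monocyte genes took part. Ccr2, the receptor that brings these cells out of the marrow, was at 153 to 463 CPM in GFP libraries and at 105, 413 and 163 CPM in DN_1, DN_3 and DN_6. Fn1, fibronectin, was at 461 to 1078 CPM in GFP libraries, 89.9 CPM in DN_1, 2038 CPM in DN_3 and 752 CPM in DN_6. Chi3l3, a chitinase-like protein (chromosome 3, 106147554 to 106167564, Chil3 in the annotation), was at 158 to 1066 CPM in GFP libraries and at 61.4, 160 and 45.3 CPM in the DN libraries. F13a1, the coagulation factor XIII subunit of monocytes and resident macrophages, was at 442 to 2882 CPM in GFP libraries and at 167, 776 and 199 CPM. GFP_3 was the highest GFP library for Ccr2, Chi3l3 and F13a1. For the whole list, 10 of 14 genes were higher in GFP than in DN_3 and DN_6, with a median of 1.61 and 0 passed.

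Some genes put DN_1 on one side of the GFP libraries and the libraries labelled DN_3 and DN_6 on the other, so a mean over DN hides them. DN_1 was above and the other 2 below all GFP libraries for 93 of 17143 genes. Among the genes kept for naming, those with the widest gaps were Ly6c2, Slpi, Pydc3, Ccdc125 and Pex26. Slpi, a secreted inhibitor of neutrophil elastase, was at 112 to 271 CPM in GFP libraries, 389 CPM in DN_1 and 36.7 and 18.9 CPM in DN_3 and DN_6. Pydc3, of the interferon-inducible pyrin family (Ifi208 in the annotation), was at 14.4 to 26.3 CPM in GFP libraries, 58.0 CPM in DN_1 and 8.65 and 7.56 CPM in the others. The family holds near copies whose reads may be shared.

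The reverse pattern, DN_1 below and the other 2 above, held for 80 genes. Among the genes kept for naming it was led by Itgax, Mamdc2, Leprel2, Rtn1 and Stac. Mamdc2, a secreted protein with MAM domains, was at 19.8 to 39 CPM in GFP libraries, 5.46 CPM in DN_1 and 56.7 and 80.3 CPM in DN_3 and DN_6. Rtn1, a reticulon of the endoplasmic reticulum, was very even in GFP libraries at 14.5 ± 1.08 CPM (SD, n = 6). It was at 1.43 CPM in DN_1 and at 22.9 and 23.1 CPM in the other 2. Leprel2, a prolyl 3-hydroxylase of collagen (P3h3 in the annotation), was at 17.9 to 27.9 CPM in GFP libraries and at 12.6, 40.4 and 49.7 CPM. None of these genes passed the adjusted edgeR test over 18 libraries, in which the log2 difference of Itgax against DN_3 and DN_6 was -1.04 ± 0.75.

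Immediate early genes, which cell handling can induce, were in part lower in DN. Of 20 such genes 19 were higher in GFP than in DN, with a median of 0.47 and 0 passed, and all 3 DN libraries lay below all GFP libraries for 3 of them, against 0.636% of all genes. The 3 were Hspa1a, Zfp36 and Ier3. Hspa1a, the inducible heat shock protein whose reads its copy Hspa1b may share, averaged 2038 ± 266 CPM (SD, n = 6) in GFP libraries and was at 594, 1454 and 865 CPM in DN_1, DN_3 and DN_6. Zfp36, which destabilises cytokine mRNA, was at 3314 to 4830 CPM in GFP libraries against 1017, 3237 and 2328 CPM. Fos was below the GFP range only in DN_1, at 934 CPM against 2695 to 5365 CPM, with 2826 and 3449 CPM in the other 2. The summed list was at 33940.0 to 48908 CPM in GFP libraries, 16051 CPM in DN_1 and 36156 and 31782 CPM in DN_3 and DN_6.

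Antigen presentation and interferon genes, taken as lists, did not separate GFP from all 3 DN libraries. The MHC class II list summed to 19140 to 39861 CPM in GFP libraries and to 9401, 21258 and 31470.5 CPM in the DN libraries. H2-Ab1 was at 4736 to 9199 CPM in GFP libraries and at 1897, 5331 and 7213 CPM. Members of the MHC class II list divided in DN_1. It was at least 2-fold above all GFP libraries for 3 of 10 and at least 2-fold below for 3, against 4.61% and 6.56% of all genes. By total counts these numbers were 3 and 0. Of 25 interferon response genes 16 were higher in GFP than in DN, with a median of 0.28. For 2 of the 25 DN_1 was at least 2-fold below all GFP libraries, and for 0 at least 2-fold above. Irf7, which amplifies the interferon response, was the only one for which all 3 DN libraries lay below all GFP libraries, at 124, 90.0 and 107 CPM against 140 to 204 CPM. Ifit1 was at 44.6 to 421 CPM in GFP libraries and at 22.1, 506 and 61.3 CPM, with GFP_3 and DN_3 the highest of their groups.

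**Figure D5:**
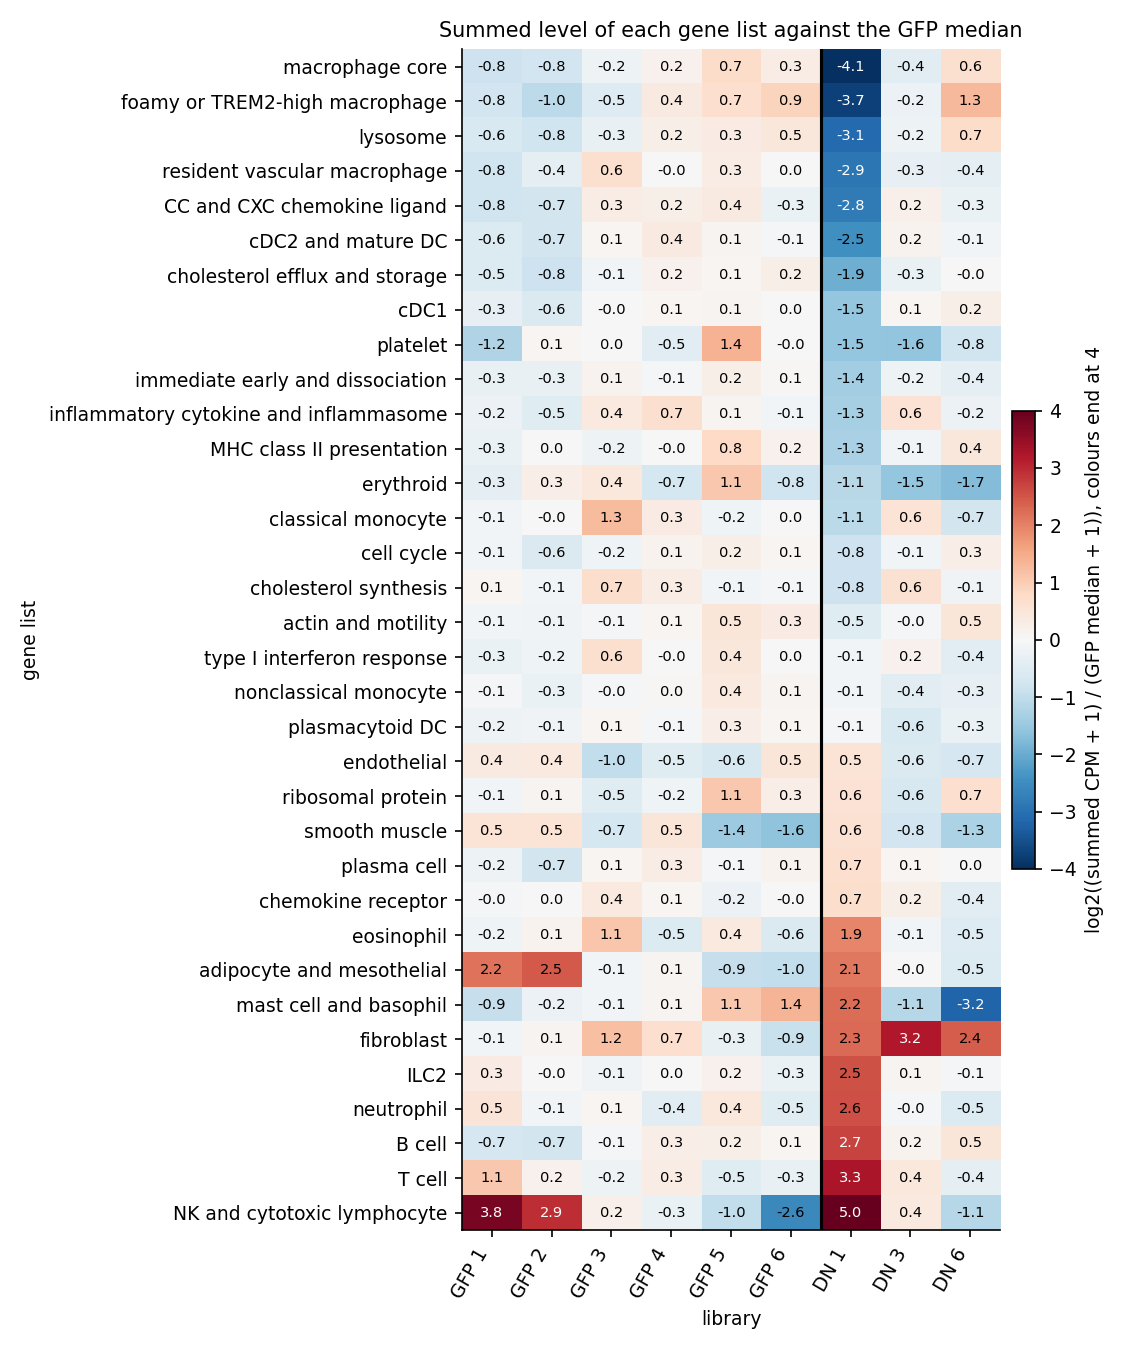
Summed CPM of each gene list in each library, as the log2 ratio to the median of the 6 GFP libraries, after adding 1; red is above and blue below that median, and the black line parts GFP from DN libraries. In DN replicate 1 the macrophage list is lowest (2610 CPM) and the lymphocyte lists are highest; the fibroblast list is above every GFP library in all 3 DN libraries (2442, 4619 and 2666 CPM).

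Libraries with the same number deviated alike from the mean of their subset, though other pairs did so about as much. Deviations correlated at 0.570 for GFP_1 and DN_1, 0.594 for GFP_3 and DN_3 and 0.673 for GFP_6 and DN_6, across genes. They also correlated at 0.610 for GFP_2 and DN_1, 0.558 for GFP_4 and DN_3 and 0.618 for GFP_5 and DN_6. The DN mean includes DN_1, so the deviations of all 3 DN libraries depend on it. The Y-linked genes Ddx3y and Eif2s3y were at 29.1 to 97.2 and at 19.9 to 42.9 CPM in GFP_1 to GFP_5, and at 0.151 and 0 CPM in GFP_6. They were at 87.4 and 34.6 CPM in DN_1, 126 and 44.9 CPM in DN_3, and 0.367 and 0 CPM in DN_6. Both libraries numbered 6 thus lacked Y-linked transcripts, and the other 7 held them. Xist, the transcript of the inactive X chromosome, was at 4.37 to 39.4 CPM in GFP libraries and at 13.2, 2.79 and 19.7 CPM in DN libraries, so the libraries with Y-linked transcripts held it too. With the number as a block in the model, edgeR called 0 genes in each of the 3 comparisons.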

How the data were processed

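RNA of sorted cells was made into libraries with the SMART-seq v4 and Nextera XT kits, per the labels' protocols. One deposited table holds raw counts, whole numbers, for 23337 gene symbols in 18 libraries. Per the submitters' processing notes the build was mm10, and HTSeq 0.7.1, TopHat 1.4.1 and SAMtools were used. Neither annotation nor strand setting is stated in the sources used here. Reads of overlapping, antisense and near-identical genes may therefore be mixed. Reads carry no molecular identifiers.

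Columns were matched to samples by name and grouped by the labelled subset. Genes were filtered with filterByExpr by subset, which left 17143, and tested with edgeR 4.0.16 in R 4.3.3 (TMM, robust quasi-likelihood fit over all 18 libraries, Benjamini-Hochberg over all genes, threshold 0.05). One fit had 1 mean per subset, and the other gave DN_1 a mean of its own. DESeq2 1.42.0 and limma 3.58.1 (voom) were alternatives. The edgeR script was tested on simulated counts with a smaller spread than the common dispersions of 0.890 and 0.851 in the 2 real fits. That run checks the code and does not give the power at the real spread. The comparison, the 35 gene lists (503 of 512 entries in the table) and the tests were chosen with earlier results of these data known. Lists were described by counts and medians and not tested.

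Genes were named as follows. The reporter genes, Apoe and Ptprc were always named, with up to 4 members of highest mean CPM in each list. In each comparison and direction 5 genes without overlap and with at least 20 CPM in the higher group were taken by smallest unadjusted p, since none passed. The 5 genes in each direction that put DN_1 and the other DN libraries on opposite sides of GFP were added. Both picks skipped predicted genes, clone names, pseudogenes, Mir and Snor genes, and segments of immunoglobulin and T cell receptor genes. Cxcl12, Hp, Pglyrp1, Eno3, Ier3, Lum, Pdgfra and Ly6c1 were named after their values were seen. Coordinates are from GENCODE vM21 on mm10, by symbol or older symbol, for all 94 genes looked up. Within each subset every pair of libraries differed by more than sampling noise (the least chi-square per degree of freedom was 25.3). For the numbers shared by GFP and DN, all 3 same-number correlations of deviations were above 0.1, so the numbers were taken to pair libraries. However, GFP_2 with DN_1 (0.610), GFP_4 with DN_3 (0.558) and GFP_5 with DN_6 (0.618) correlated about as well.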

Additional observations from a re-analysis of the deposited data

Results flagged for a closer look

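Single GFP libraries stood far from the other 5 for 16 of 131 values tested with Dixon's criterion. Its rate of about 1 in 20 holds for independent values with a normal distribution. The values here were not logged, and some lists were tested beside their own members, so 16 cannot be set against that rate. In GFP_3, Sfrp4 was at 119 CPM (next 43.6), F13a1 at 2882 CPM (next 1049), Chi3l3 at 1066 CPM (next 434) and Ccr2 at 463 CPM (next 248), and the classical monocyte list summed to 5818 CPM (next 3011). In GFP_5, S100a8 was at 66.9 CPM (next 16.1), S100a9 at 81.3 CPM (next 20.4) and H2-Ab1 at 9199 CPM (next 6095). The MHC class II list of GFP_5 summed to 39861 CPM, its platelet list to 542.939 CPM and its ribosomal protein list to 5040 CPM. In GFP_1, Lck was at 101 CPM (next 36.2) and Gzmb at 81.1 CPM (next 28.5), and the T cell list summed to 542.933 CPM. Cd22 was highest in GFP_6, at 33.6 CPM (next 24.0), still under the 313 CPM of DN_1. Pydc3 was lowest in GFP_4, at 14.4 CPM (next 22.2). The cause of these was not tested.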

How the results depend on the processing

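The count of 0 genes for GFP against DN held under every setting with a count of calls except numbers 1 and 2 alone, which gave 2296. For the fit by total counts, calls were not counted in any of the 3 comparisons. Without DN_1, DESeq2 called 4 genes, all higher in GFP (0610040F04Rik, Gm11747, Mir1198 and Vmn2r26), and the other settings with a count 0. Their log2 fold changes in DESeq2 were 21.5, 19.7, 23.1 and 16.7, too large to be read as differences in level. For DN_1 alone, the 9-library fit called 773, DESeq2 202 and voom 3733, and other settings with a count 0. DESeq2 left the adjusted p of 16245 genes empty there. The 9-library count was 451 to 849 when 1 GFP or DN library was left out, the lowest without GFP_4, with 469 without GFP_3, 497 without GFP_6, 824 without GFP_1 or GFP_5, 807 without DN_3 and 774 without DN_6. With the replicate number as a block all 3 counts were 0.

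Genes with all DN libraries above GFP numbered 145, and 158 to 248 without 1 GFP library, the highest without GFP_2. Genes of DN_1 above the range numbered 791, but 1706 by total counts, 246 at 4-fold and 515 with a pseudocount of 5. Those below numbered 1124, but 555 by total counts and 368 at 4-fold. For DN_3 and DN_6 above, 19 became 10 by total counts, 0 at 4-fold, 11 with a pseudocount of 5 and 19 to 35 without 1 GFP library, the highest without GFP_3. Below, 12 became 1 at 4-fold (Ly6c2), 5 with a pseudocount of 5 (Cd300e, Ly6c2, Plac8, Slpi and Treml4) and 12 to 20 without 1 GFP library, the highest without GFP_4. By total counts the median of all genes was -0.17 against DN, 0.28 against DN_3 and DN_6 and -0.87 against DN_1. Without 1 library in turn, the log2 difference of Cx3cr1 was -0.11 to 2.29 and that of Itgax -1.07 to 1.31, the lowest of each without DN_1. Among values of named genes under other settings 5592 kept their direction and their call, 457 changed sign without passing a test and 50 passed, all against DN_1 in the 9-library fit. The voom fits with DN_1 apart, the 9-library fits without 1 library and the list counts by setting were added after the data were seen. The cause of these shifts was not tested. Levels under about 1 CPM rest on few reads, so fold changes of Il17a or Kcnk1 are not given.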
